A study of Mus musculus with 304 samples.

Results

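The neurexins, neuroligins and LRRTM proteins are cell adhesion proteins that join the 2 sides of a synapse. The genes described here are Nrxn2, Nrxn3, Nlgn1, Nlgn2, Nlgn3, Lrrtm1, Lrrtm2, Lrrtm3 and Lrrtm4, which are 9 of the 22800 genes in the deposited table and were chosen by name, not by their values. They were read in 248 single granule cells of the mouse dentate gyrus, the input region of the hippocampus, whose cytosol was drawn into a patch pipette and sequenced cell by cell (Patch-seq). The kainate experiment held 31 control cells from mice with no injection, 58 cells of the injected side taken 1 day after 70 nl of 5 mM kainic acid was injected into the hippocampus, and 29 cells taken 14 days after kainic acid, whose side is not labelled. Kainic acid activates glutamate receptors and provokes seizures. The overexpression experiment held 71 cells given an adeno-associated virus (AAV) with Id2 and 59 cells given one with GFP, each read after 1 month. The sources used here give no strain, age, sex, viral promoter or animal of origin.

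Neurexins sit mainly in the presynaptic membrane, where they act as receptors for many partners on the other side of the cleft. Neuroligins and LRRTM proteins are postsynaptic ligands of neurexins: neuroligin 1 is found mostly at excitatory synapses, neuroligin 2 at inhibitory ones, neuroligin 3 at both kinds, and LRRTM proteins at excitatory synapses. Granule cells are postsynaptic to axons from the entorhinal cortex and presynaptic through their mossy fibres, so 1 granule cell can make RNA for both sides of this system.

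For the 2 genes that stood past 2-fold above control 1 day after kainic acid, Nrxn3 and Lrrtm3, the DNA just upstream of the start is shown because these genes stood higher together. RefSeq's promoter table (GRCm38.p6) held 10 start sites for 6 of the 9 genes, and the 250 bases before each were searched for 3 motifs that read the same on both strands and did not overlap here: TGACGTCA, the full cyclic AMP response element, TGANTCA, the site of AP-1 type factors, and CANNTG, the E-box of basic helix-loop-helix factors, the partners that Id2 protein keeps off DNA. Capitals mark the matches in the windows below. The first is Lrrtm3, minus strand, chr10:64090256-64090505. The others are 2 of the 3 listed starts of Nrxn3 on the plus strand, chr12:88953140-88953389 and chr12:89812233-89812482.
Lrrtm3: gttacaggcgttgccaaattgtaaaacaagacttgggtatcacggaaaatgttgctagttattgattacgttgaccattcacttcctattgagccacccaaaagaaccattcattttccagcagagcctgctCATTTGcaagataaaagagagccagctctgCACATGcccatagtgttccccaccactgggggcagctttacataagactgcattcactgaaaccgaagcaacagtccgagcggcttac
Nrxn3 start 2: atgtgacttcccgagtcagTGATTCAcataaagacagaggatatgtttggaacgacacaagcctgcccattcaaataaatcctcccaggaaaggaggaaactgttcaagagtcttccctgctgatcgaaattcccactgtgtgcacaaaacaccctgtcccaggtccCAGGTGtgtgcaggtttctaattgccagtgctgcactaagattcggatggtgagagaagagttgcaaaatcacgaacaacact
Nrxn3 start 3: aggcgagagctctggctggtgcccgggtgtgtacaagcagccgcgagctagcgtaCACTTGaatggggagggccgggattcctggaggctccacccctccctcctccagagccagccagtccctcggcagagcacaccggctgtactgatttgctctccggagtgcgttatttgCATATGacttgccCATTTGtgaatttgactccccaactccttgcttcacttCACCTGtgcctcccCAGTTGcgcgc
The Lrrtm3 window held 2 E-boxes. The second Nrxn3 start had 1 E-box and 1 match of the loose pattern TGANTCA, with T in the middle, which is not called an AP-1 site here. The third had 5 E-boxes, and the first had none of the 3 motifs. None of the 10 windows held TGACGTCA, which 1.55% of all 32851 windows in the table held, whereas TGANTCA was in 6.75% and CANNTG in 66.2% of all windows. The deposited counts add up all transcripts of a gene and do not tell the Nrxn3 starts apart.

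Reads counted in genes per cell had medians of 1738610 in the control group, 6834546 at day 1, 7615492 on day 14, 3317227 in Id2 cells and 3957794 with GFP. The overexpressed gene, Id2, stood at 37369 CPM in Id2 cells and 93.2 CPM in GFP cells, where CPM is the gene's part of a group's pooled reads, scaled to 1000000. The 16 dentate granule cell markers listed for the check of the label were all read in 4 groups and all but Lct in control cells. Their summed level was 4214 CPM in control cells, 2064 CPM at day 1, 1957 CPM on day 14, 3075 CPM with Id2 and 4496 CPM with GFP. Markers of the labelled cell type were thus read in each group, at a lower sum after kainic acid. Reads in pooled cells do not test the label of single cells. Single cells varied widely: at least 1000 CPM of these markers was read in 29 of 31 control cells, 46 of 58 day 1 cells, 24 of 29 day 14 cells, 64 of 71 Id2 cells and 58 of 59 GFP cells. The lowest cell had 0.730 CPM at day 1 and 6.87 CPM with Id2. Markers of other cell types were read too: the 15 microglia markers summed to 3866, 831 and 7007 CPM in control, day 1 and day 14 cells, and to 625 CPM with Id2 and 182 CPM with GFP. Cells with at least 1000 CPM of these markers numbered 17 of 31 in the control group, 8 of 58 at day 1, 20 of 29 at day 14, 11 of 71 with Id2 and 2 of 59 with GFP. Markers of CA pyramidal cells summed to 231 CPM in the control group, 153.8 CPM at day 1 and 751 CPM on day 14 (median cell 664 CPM), and to 177.5 CPM with Id2 and 68.3 CPM with GFP. Interneuron markers were also highest on day 14, at 1210 CPM, and lay between 376 and 697 CPM in the other groups, with Vip and Lhx6 at 0 in the control, day 1 and day 14 groups. On day 14, 7 of the 10 CA pyramidal markers and 4 of the 10 interneuron markers had reads. Astrocyte markers summed to between 176 and 537 CPM across the 5 groups. All cells compared are labelled as granule cells, so no background level was measured in cells that lack the 9 genes. The part of these differences in the values below was not tested, except where values without the microglia-rich cells are given.

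With no animal named for any cell, each group counted as 1 sample and had no replicate, so no p-value or standard error was computed and groups were compared by size alone. A gene was measured in a comparison if at least 20% of the cells of either group had a read and either group reached 5 CPM. It was called past 2-fold if the log2 ratio, taken after adding 1 CPM to both groups, was at least 1 in size. In each of the 5 groups at least 1 cell had no read of each of the 9 genes, so the ranges of single cells overlapped in every comparison below. A lower level in a group can mean fewer cells with the RNA or less RNA per cell, and both are given. Control cells and kainate cells carry different series of titles, so what the treatment did and what a batch might have done cannot be told apart. Control cells are also shared by 3 of the comparisons, so those are not independent of each other.

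**Figure D1:**
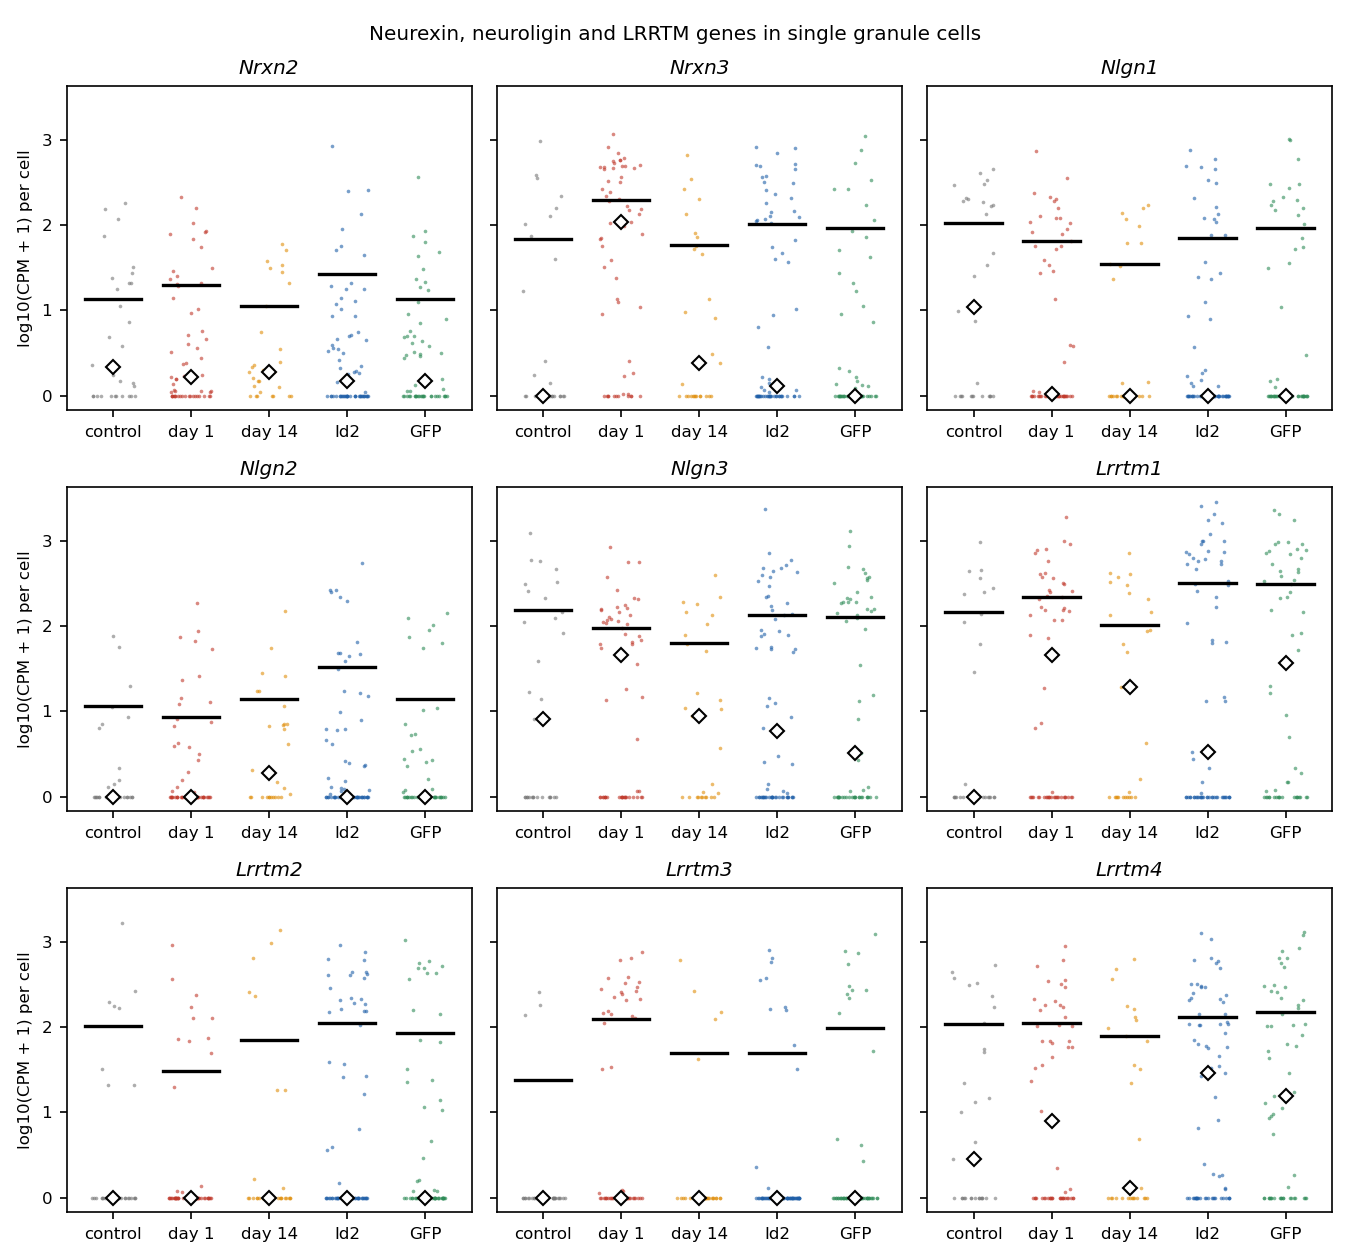
Level of each gene in every single cell, as log10 of CPM + 1, by group. Small points are cells, black bars the CPM of the summed counts and open diamonds the median cell; the diamond of Nrxn3 stands far above 0 at day 1 only, and that of Lrrtm2 and Lrrtm3 lies at 0 in all 5 groups.

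Per kilobase of exon, Lrrtm1 was the most abundant of the 9 genes in every group. It reached 47.7 CPM per kb in control cells, 71.6 at day 1, 33.9 on day 14, 106.6 with Id2 and 102.3 with GFP. Lrrtm1 encodes a leucine-rich repeat protein that binds neurexins and helps to build excitatory synapses. The next level was held by Lrrtm4 in 4 groups, at 17.7 CPM per kb in control cells, 12.8 at day 14, 21.6 with Id2 and 24.2 with GFP, and by Lrrtm3 at day 1, at 28.8. Nrxn2 was lowest per kilobase in 4 groups, from 0.736 CPM per kb at day 14 to 1.86 with Id2, while Nlgn2 was lowest at day 1, at 1.32. Between these ends the order moved with the group: Nrxn3 was the fourth at day 1, at 15.8 CPM per kb, and the sixth in each of the other groups, from 4.54 at day 14 to 8.11 with Id2. For every gene the quartile ranges of the cells overlapped between groups next to each other in the order of levels.

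Of the presynaptic receptors, Nrxn3 (ENSMUSG00000066392.11, chromosome 12, 88722876 to 90334935, plus strand, GRCm38) differed most with time after kainic acid. It stood at 68.5 CPM in control cells (exact Poisson interval for counting error at 95%, 66.6 to 70.5), 199 CPM at day 1 (197 to 199.9) and 57.2 CPM at day 14 (56.3 to 58.2). The median cell had 0 CPM in the control group, 106.9 CPM at day 1 and 1.43 CPM at day 14, and the highest cells had 967, 1163 and 662 CPM. The median cell was thus highest at day 1, although 11 of the 58 day 1 cells had no read. Among control cells 10 of 31 had at least 10 CPM of Nrxn3, a share of 32.3% with 16.7% to 51.4% as the exact 95% range (Clopper-Pearson). The share was 40 of 58 at day 1, or 68.97% (55.5% to 80.5%), and 11 of 29 at day 14, or 37.9% (20.7% to 57.7%). These ranges treat cells as independent draws and do not cover differences between animals. Nrxn3 stood at 102.2 CPM with Id2 and 92.7 CPM with GFP, where the highest GFP cell alone held 39.8% of the group's reads of it. The median cells had 0.310 CPM with Id2 and 0 with GFP and the highest cells 836 and 1104 CPM.

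Nrxn2 (ENSMUSG00000033768.17, chromosome 19, 6418731 to 6544169, plus strand), the other neurexin of the set, was read at a trace in many cells. It stood at 12.5 CPM in control cells, 18.99 at day 1, 10.2 on day 14, 25.7 with Id2 and 12.7 with GFP. Median cells lay between 0.472 CPM with GFP and 1.17 CPM in the control group, and highest cells between 59.4 CPM at day 14 and 861 CPM with Id2. Reads of Nrxn2 were found in most cells of every group, from 53.5% with Id2 to 75.9% at day 14, but in many cells at a trace: 39 of 58 day 1 cells had a read and 16 had at least 10 CPM. A single cell held 35.8% of the Nrxn2 reads of the Id2 group and 43.2% of those of the GFP group.

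Among the neuroligins, Nlgn1 (ENSMUSG00000063887.13, chromosome 3, 25426215 to 26332460, minus strand) was progressively lower in the kainate series. It stood at 105.7 CPM in control cells (103.3 to 108.2), 63.9 CPM at day 1 (63.2 to 64.6) and 33.7 CPM at day 14 (32.9 to 34.4). The median cell had 9.89, 0.0570 and 0 CPM in the same order, and the highest cell 462, 750.2 and 171 CPM. No day 14 cell reached the upper quartile of control cells, which was 188 CPM. At least 10 CPM was found in 48.4% of control cells, 41.4% of day 1 cells and 34.5% of day 14 cells, shares whose intervals overlap widely. With the viruses, Nlgn1 stood at 69.6 CPM in Id2 cells and 91.9 CPM in GFP cells, with median cells at 0 in both and highest cells of 765 and 1036 CPM.

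Nlgn3 (ENSMUSG00000031302.16, chromosome X, 101299168 to 101325963, plus strand), the neuroligin of both kinds of synapse, ran in the same order by summed level. It stood at 154.3 CPM in control cells (151.4 to 157.3), 93.8 CPM at day 1 (92.95 to 94.7) and 63.2 CPM at day 14 (62.2 to 64.2), and at 135.1 CPM with Id2 and 127.7 CPM with GFP. Median cells had 7.22, 44.7 and 7.84 CPM in the control, day 1 and day 14 groups, and highest cells 1235, 851 and 404 CPM. With Id2 the median and highest cells had 4.83 and 2360.3 CPM, and with GFP 2.22 and 1325 CPM. Summed and median levels thus differ in their order, and 29.5% of the control reads came from 1 cell. Of the exon bases of Nlgn3, 41.2% are shared in GENCODE M21 with a predicted gene on the same strand, Gm21986, which is not among the rows of the table, so how reads there were assigned is not known.

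Nlgn2 (ENSMUSG00000051790.15, chromosome 11, 69823122 to 69837784, minus strand), which organises inhibitory synapses, stood higher in Id2 cells than in the other groups. It stood at 10.6 CPM in control cells (9.83 to 11.4), 7.63 CPM at day 1 (7.38 to 7.88), 12.97 CPM at day 14 (12.5 to 13.4), 32.03 CPM with Id2 (31.4 to 32.7) and 12.9 CPM with GFP (12.4 to 13.4). The median cell was at 0 CPM in 4 groups and at 0.900 CPM at day 14. The highest cell had 76.2 CPM in the control group, 188 at day 1, 150.8 at day 14, 550.2 with Id2 and 142.3 with GFP. In the Id2 group a different cell held 38.5% of the reads of Nlgn2. The counting intervals of the day 14 and GFP groups overlap, and all others are apart.

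Of the LRRTM ligands, Lrrtm3 (ENSMUSG00000042846.8, chromosome 10, 63928472 to 64090277, minus strand) had the largest contrast of the 9 genes. It stood at 22.8 CPM in control cells (21.6 to 23.9), 122.5 CPM at day 1 (121.5 to 123.5), 49.1 CPM at day 14 (48.3 to 49.97), 48.3 CPM with Id2 (47.5 to 49.2) and 96.1 CPM with GFP (94.8 to 97.4). A read was found in 3 of 31 control cells, 26 of 58 day 1 cells, 5 of 29 day 14 cells, 12 of 71 Id2 cells and 14 of 59 GFP cells. In most cells that had the RNA it was plentiful: 23 of the 26 day 1 cells and all 3 control cells had at least 10 CPM. The control level rests on those 3 cells, 1 of which held 56.0% of the reads. Shares of cells with at least 10 CPM were 39.7% at day 1 (27.05% to 53.4%) and 9.68% in the control group (2.04% to 25.8%), and the highest cells had 773 and 258 CPM. The highest cells of the other groups had 613 CPM at day 14, 805 CPM with Id2 and 1258 CPM with GFP, and the median cell had none in any group.

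Lrrtm2 (ENSMUSG00000071862.3, chromosome 18, minus strand), a neurexin ligand of excitatory synapses, went the other way at day 1. It stood at 102.1 CPM in control cells (99.7 to 104.5), 29.3 CPM at day 1 (28.8 to 29.8) and 69.7 CPM at day 14 (68.7 to 70.7), and at 110.7 CPM with Id2 and 84.9 CPM with GFP. The median cell had 0 CPM in every group, and the highest cell had 1657, 928 and 1377 CPM in control, day 1 and day 14 cells, and 936 CPM with Id2 and 1049 CPM with GFP. Shares of cells with a read were 25.8%, 24.1% and 31.03% in the kainate series, against 43.7% with Id2 and 44.1% with GFP. Depth differed between these groups, and with cells thinned to 100000 reads the shares were 27.6% in control cells and 18.97% at day 1. In all, 44.9% of the control reads came from 1 cell. Without the highest cell the levels were 57.8 CPM in control cells and 17.9 CPM at day 1.

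Lrrtm1 (ENSMUSG00000060780.2, chromosome 6, 77242689 to 77257791, plus strand) and Lrrtm4 (ENSMUSG00000052581.13, chromosome 6, 80018877 to 80810143, plus strand) lie on the same chromosome. Lrrtm1 stood at 144.8 CPM in control cells, 217 at day 1, 102.9 on day 14, 323 with Id2 and 310.2 with GFP. Its median cells had 0, 45.1, 18.5, 2.34 and 36.6 CPM in the same order and its highest cells 973, 1913, 722, 2895 and 2299.9 CPM. The cells with either virus thus held about the same summed level, above all 3 groups of the kainate series. Lrrtm4, which binds heparan sulfate proteoglycans as well as neurexins and is prominent on dentate granule cell dendrites, stood at 108.97 CPM in control cells, 112.6 at day 1, 78.9 on day 14, 132.6 with Id2 and 148.8 with GFP. Its median cells had 1.87, 7.04, 0.299, 27.8 and 14.6 CPM and its highest cells 540.3, 906, 625, 1269 and 1324 CPM. A read of Lrrtm4 was found in between 51.6% of control cells and 66.1% of GFP cells.

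Lrrtm1, Lrrtm2 and Lrrtm3 lie inside the alpha-catenin genes Ctnna2, Ctnna1 and Ctnna3, each on the opposite strand. Alpha-catenins link cadherins to the actin skeleton. In CPM, Ctnna2 stood at 1.87 CPM at day 14 to 47.6 CPM with Id2, Ctnna1 at 0.104 CPM in control cells to 27.98 CPM with Id2, and Ctnna3 at 3.10 CPM at most. Ctnna1 stood at 10.5 CPM at day 1 and 0.104 CPM in control cells, where it had 7 reads. It did not meet the rule for a measured gene there, with a read in 13.8% of day 1 and 6.45% of control cells, so no direction is given. The sources used here do not give the strand setting of the counting. A further 25.1% of the exon bases of Lrrtm4 are shared with Gm4409 on the opposite strand, and 9.16% of those of Nlgn1 with A830092H15Rik.

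**Figure D2:**
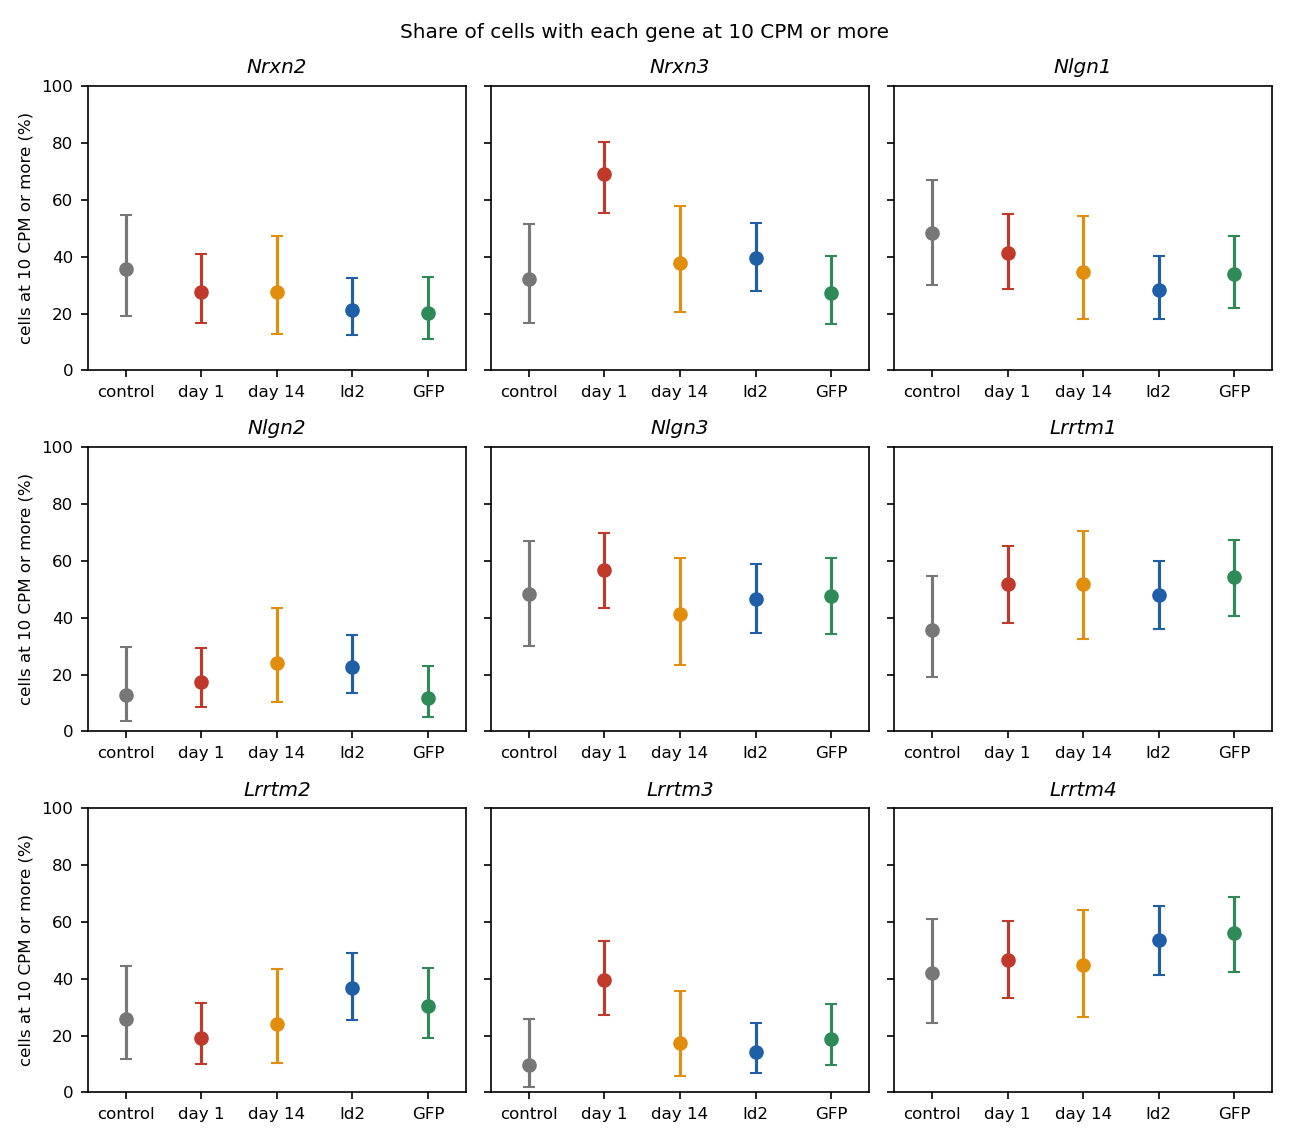
Share of cells with at least 10 CPM of each gene, in percent, by group; bars are exact Clopper-Pearson intervals at 95% over cells. For Nrxn3 and Lrrtm3 the day 1 interval lies above the control one, 55.5% against 51.4% and 27.05% against 25.8% at the nearest ends. For the other 7 genes the intervals of these groups overlap. The intervals treat cells as independent draws and do not cover differences between animals, so their overlap or lack of it tests nothing. The 10 CPM limit was chosen after seeing the data.

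One day after kainic acid, against control cells, the gene for the presynaptic receptor neurexin 3 and that for the postsynaptic ligand LRRTM3 were higher, and that for LRRTM2 was lower. Nrxn3 was 2.90-fold higher (199 and 68.5 CPM, log2 ratio 1.52), Lrrtm3 was 5.38-fold higher (122.5 and 22.8 CPM, 2.38), and Lrrtm2 was 3.49-fold lower (29.3 and 102.1 CPM, -1.77). These 3 of the 9 genes, all measured, were past 2-fold, a share close to that of all measured genes, of which 38.4% of 9079 were past 2-fold (23.2% higher and 15.2% lower). The median log2 ratio of the 9 was 0.05, beside 0.17 for all measured genes. The neuroligins were all lower but within 2-fold, Nlgn1 by 1.66-fold, Nlgn3 by 1.64-fold and Nlgn2 by 1.39-fold, and Nlgn2 was higher, at 0.69, as a mean over cells. Nrxn2 and Lrrtm1 were each about 1.5-fold higher by summed counts and Lrrtm4 1.03-fold.

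Nrxn3 and Lrrtm2 stayed past 2-fold in the same direction under each of 14 other ways of computing the ratio, between 1.08 and 1.87 and between -2.93 and -1.01 on the log2 scale. Lrrtm3 did so under 13 and stood at 0.35 with GFP cells in place of the controls, at 122.5 CPM in day 1 cells and 96.1 CPM in GFP cells. Without the microglia-rich cells, Nrxn3 stood at 200.5 CPM in 50 day 1 cells and 54.0 CPM in 14 control cells. In the same cells Lrrtm3 stood at 127.2 and 13.3 CPM and Lrrtm2 at 24.65 and 195 CPM. The direction of all 3 was the same with all cells thinned to 100000 reads, where a read of Nrxn3 was found in 67.2% of day 1 cells and 31.03% of control cells and a read of Lrrtm3 in 39.7% and 10.3%. The direction of Nrxn2 turned with the method, from -0.78 in thinned cells to 1.40 against the J-titled control cells.

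**Figure D3:**
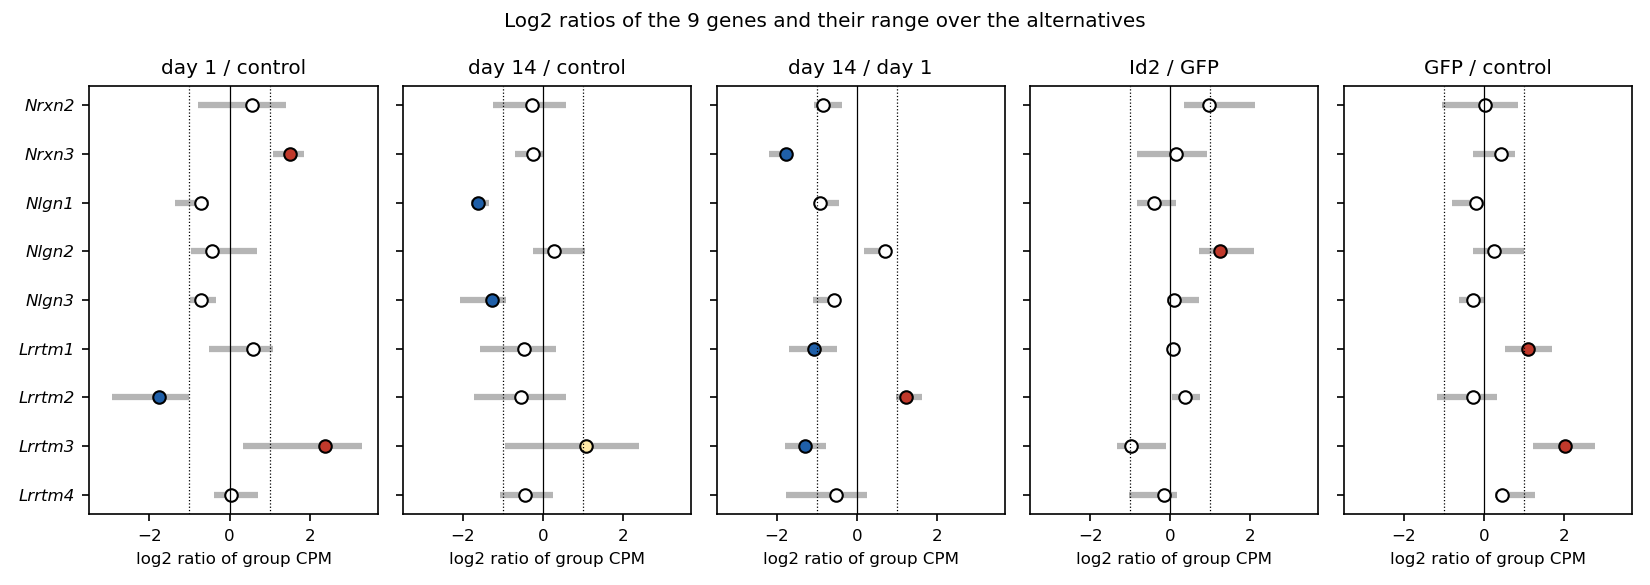
Log2 ratio of the summed levels of each gene in 5 comparisons, with the range over 11 to 14 other ways of computing it in grey; dotted lines mark 2-fold. Red points are past 2-fold higher, blue ones past 2-fold lower, white ones within 2-fold and the pale one not measured, and the grey bars of Nrxn3 and Lrrtm2 lie wholly outside the dotted lines at day 1.

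At 14 days after kainic acid the genes past 2-fold were Nlgn1 and Nlgn3, while the other neuroligin gene, Nlgn2, was within 2-fold. Against control cells, Nlgn1 was 3.14-fold lower (33.7 and 105.7 CPM, log2 ratio -1.62) and Nlgn3 2.44-fold lower (63.2 and 154.3 CPM, -1.27). Both neurexins were within 2-fold, Nrxn3 at 57.2 CPM at day 14 and 68.5 CPM in control cells and Nrxn2 at 10.2 and 12.5 CPM. These 2 of 8 measured genes stood beside 39.6% of all 9469 measured genes past 2-fold (23.8% higher and 15.8% lower), and the median log2 ratio of the 8 was -0.47, beside 0.14 for all. By summed counts 7 of the 8 were lower and Nlgn2 was higher, at 12.97 and 10.6 CPM, but 6 of these directions turned under some alternative. Lrrtm3, at 49.1 CPM in day 14 cells and 22.8 CPM in control cells, did not meet the rule for a measured gene because fewer than 20% of the cells of both groups had a read.

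Nlgn1 was past 2-fold lower under each of 14 alternatives, between -1.81 and -1.34, the smallest without microglia-rich cells (45.5 CPM in 9 day 14 cells and 116.9 CPM in 14 control cells). Nlgn3 was so under 13 and stood at -0.93 without the highest cell of each group. Microglia markers were highest at day 14, at 7007 CPM, CA pyramidal markers stood at 751 CPM, interneuron markers at 1210 CPM, and the granule cell markers were lowest, at 1957 CPM. In control cells these lists stood at 3866, 231, 676 and 4214 CPM in the same order. The part of the CA pyramidal and interneuron markers in the day 14 values was not tested. The direction of Lrrtm2 turned between -1.73 without microglia-rich cells and 0.56 as a mean over cells. The ranges of the log2 ratio also crossed 0 for Nrxn2 (-1.24 to 0.56), Nrxn3 (-0.69 to 0.0032), Nlgn2 (-0.26 to 1.04), Lrrtm1 (-1.58 to 0.31) and Lrrtm4 (-1.08 to 0.25), so the lower direction held in each alternative for Nlgn1 and Nlgn3 alone.

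Between the days, Nrxn3 was 3.47-fold lower at day 14 (57.2 CPM) than at day 1 (199 CPM), Lrrtm3 2.49-fold lower (49.1 and 122.5 CPM) and Lrrtm1 2.11-fold lower (102.9 and 217 CPM). Lrrtm2 was 2.38-fold higher (69.7 CPM at day 14 and 29.3 CPM at day 1). These 4 of 9 genes past 2-fold compare with 34% of all 9823 measured genes (17.4% higher and 16.6% lower), and the median log2 ratio of the 9 was -0.84, beside -0.02 for all. Nrxn3 was past 2-fold lower in each of 11 alternatives, Lrrtm2 higher in 10, Lrrtm3 lower in 9 and Lrrtm1 lower in 7. Lrrtm1 stood at -0.49 without the deepest 10% of cells. Day 1 and day 14 cells carry different title numbers, so day and batch cannot be told apart here either.

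By summed counts, the inhibitory synapse gene Nlgn2 was past 2-fold higher in Id2 cells than in GFP cells. None of the other 8 genes reached the log2 limit. Nlgn2 was 2.49-fold higher (32.03 CPM in Id2 cells and 12.9 CPM in GFP cells, log2 ratio 1.25). At least 10 CPM of Nlgn2 was found in 16 of 71 Id2 cells (22.5%, exact 95% interval from 13.5%) and 7 of 59 GFP cells (11.9%, up to 22.9%), so the shares' intervals overlap, and 38.5% of the Id2 reads came from 1 cell. This was 1 of 9 measured genes, beside 22.9% of all 7846 (10.2% higher and 12.6% lower). Just within the limit on the log2 scale lay Nrxn2 at 0.96 (25.7 CPM in Id2 cells and 12.7 CPM in GFP cells) and Lrrtm3 at -0.98 (48.3 and 96.1 CPM). By CPM alone, without the added 1 CPM, Nrxn2 was 2.01-fold higher. Nrxn2 was past 2-fold higher in 7 of 13 alternatives and Lrrtm3 past 2-fold lower in 3. Lrrtm1, Nlgn3, Nrxn3 and Lrrtm4 were between 1.102-fold higher and 1.123-fold lower. The median log2 ratio of the 9 was 0.08, beside -0.10 for all measured genes.

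Titles of the Id2 and GFP cells fall into 2 sets, those numbered up to 95 (43 Id2 and 43 GFP cells) and those above 95 (28 and 16 cells), which gives each ratio a second reading. Nlgn2 was higher in both sets, at 31.8 CPM in Id2 cells and 14.4 CPM in GFP cells of the first and at 32.5 and 6.89 CPM in the second. Nrxn2 was higher in both as well, at 17.6 and 13.7 CPM in the first set and 42.6 and 9.04 CPM in the second. Nrxn3 went in opposite directions, at 94.04 and 61.7 CPM in the first set and 119.2 and 213 CPM in the second. Lrrtm4 did so too, at 134 and 118.9 CPM and then 129.4 and 264 CPM. The lower Lrrtm3 level was that of the first set, 45.02 and 105.5 CPM, beside 55.2 and 59.8 CPM in the second. Nlgn2 remained past 2-fold in 12 of 13 alternatives and stood at 0.72 without the deepest 10% of cells. The alternative without the highest cell drops the cell with the highest CPM, here 550.2 CPM, which leaves 29.5 CPM in Id2 cells. The cell with 38.5% of the Id2 reads of Nlgn2 is a different one and stayed in that alternative. Its title is numbered up to 95, so the 31.8 CPM of the first set includes it and the 32.5 CPM of the second does not. The ratio without that cell alone was not computed, for the whole group or for the first set. The 12 alternatives thus do not show whether Nlgn2 stays past 2-fold in the whole group without it, or higher in the first set.

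**Figure D4:**
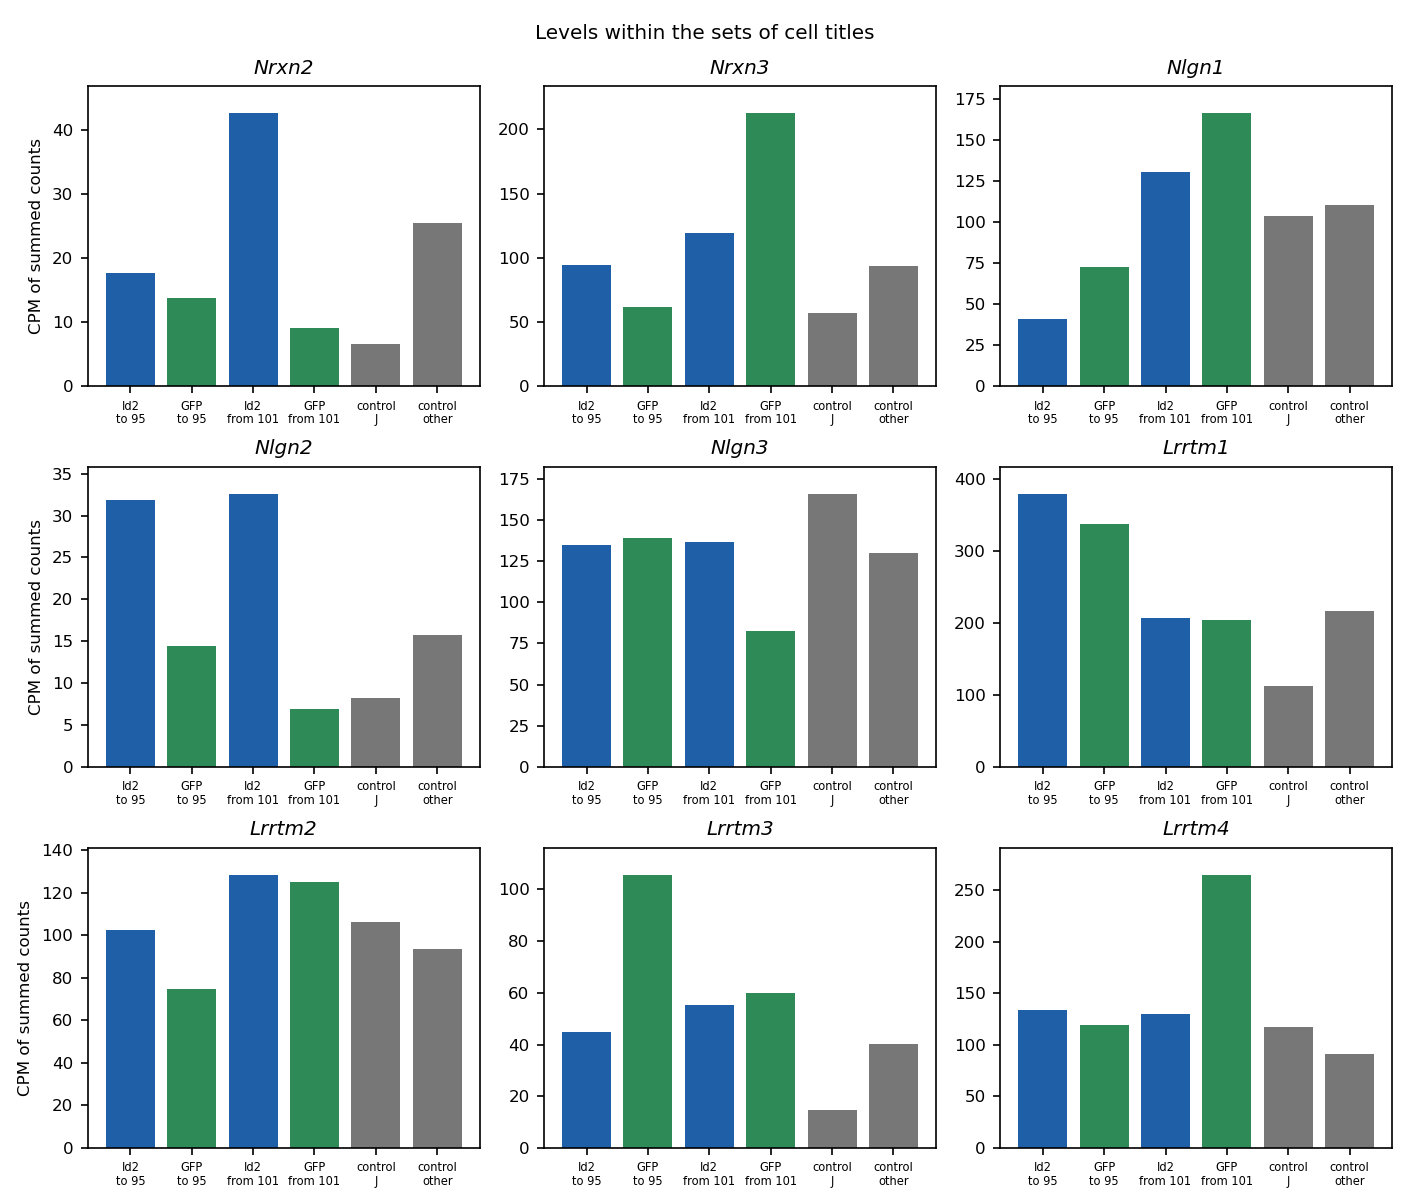
CPM of the summed counts of each gene within the sets of cell titles: Id2 and GFP cells with titles up to and above 95, and control cells with titles starting with J (22 cells) and other titles (9 cells). Bars carry no error because each set is 1 value. Nlgn2 is higher in Id2 cells in both sets, and Nrxn3 changes side between them. The first set includes the cell that held 38.5% of all Id2 reads of Nlgn2.

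Between cells with the GFP virus and control cells without any injection, the genes past 2-fold were both LRRTM genes. Lrrtm3 was 4.22-fold higher (96.1 CPM in GFP cells and 22.8 CPM in control cells, log2 ratio 2.03) and Lrrtm1 2.14-fold higher (310.2 and 144.8 CPM, 1.09). These 2 of 9 measured genes stood beside 32.3% of all 8085 (19.3% higher and 13% lower), with a median log2 ratio of 0.26 for the 9 and 0.13 for all. Lrrtm3 was past 2-fold in all 13 alternatives. Lrrtm1 was so in 11 and stood at 0.52 against the 9 control cells with titles other than J, which had 216 CPM of it, beside 111.9 CPM in the 22 J-titled ones. The titles of GFP and control cells also differ, so virus and title series cannot be told apart.

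Within single cells the 9 genes were mostly read a few at a time. The median cell had at least 10 CPM of 3 of the 9 genes in the control, day 14, Id2 and GFP groups and of 4 at day 1. The richest cells had 6, 7, 6, 9 and 7 in the control, day 1, day 14, Id2 and GFP groups. Cells without any of them at that level were 2 of 31, 3 of 58, 3 of 29, 7 of 71 and 4 of 59. Summed over the 9 genes the level was 730.4 CPM in control cells, 864 at day 1, 478 on day 14, 979 with Id2 and 978 with GFP. By family, the neurexin sum was 81.1, 218 and 67.4 CPM in control, day 1 and day 14 cells, the neuroligin sum 271, 165 and 109.8 CPM, and the LRRTM sum 379, 481 and 301 CPM.

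The genes moved together only weakly from cell to cell. Over the thinned cells of each group (29, 58, 29, 71 and 59 cells for control, day 1, day 14, Id2 and GFP), the mean of the 5 within-group Spearman correlations was highest for Lrrtm1 with Lrrtm2, at 0.23, then for Nlgn1 with Lrrtm3 and with Lrrtm1, both at 0.21. For Nlgn1 with Lrrtm1 the values ran from -0.10 in Id2 cells to 0.55 in control cells, a wide range for 1 pair. These values are a description. Among 4047 other genes read in enough cells, those most like a member from cell to cell with a mean of at least 0.3 were Gal3st3 (0.38) and Neurod1 (0.38) for Nlgn1, C1qtnf4 and Gnai1 (0.35 each) for Lrrtm1, Sdf2 (0.34) and Ube3a (0.32) for Lrrtm4, Cep70 (0.32) for Nrxn2, Adgrb1 (0.32) and Sacm1l (0.31) for Nrxn3 and Crtc1 (0.30) for Nlgn3. None reached 0.3 for Nlgn2, Lrrtm2 or Lrrtm3. The means named here are the highest of many values, and the single groups differed. For Crtc1 the values ran from -0.01 in control cells to 0.60 in Id2 cells. For Neurod1 they ran from 0.04 in Id2 cells to 0.59 in control cells.

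Over the 5 group levels, 9584 genes were ranked by how closely their centred log2 levels followed each member, with the root mean square difference as the measure. The closest pairs were Lrrtm4 with Prpf39 (0.03), at 270.0 CPM in control cells, 271 at day 1, 196 on day 14, 312 with Id2 and 369 with GFP, and Nlgn3 with Oat (0.03), at 169.9, 110.05, 72.6, 154.3 and 150.02 CPM in the same order. Nrxn3 was followed most closely by Ap1s2 (0.08), at 135.02, 345.5, 119.99, 199.7 and 179 CPM, and Lrrtm2 by Abca2 (0.06), at 56.5, 16.9, 41.8, 60.02 and 46.04 CPM. With 5 values per gene and so many genes, close matches are to be had for any pattern.

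The rest of the system was read from 9 lists of related genes, the Ctnna hosts being 1 of them. The first list holds secreted ligands that bridge neurexins and postsynaptic receptors, with these receptors. It was lower than in control cells after kainic acid, and its receptors alone were also lower with the GFP virus. At day 1, 4 of its 6 measured genes were past 2-fold lower and none higher, beside 15.2% and 23.2% of all measured genes. Its median log2 ratio was -1.22 beside 0.17 for all measured genes. At day 14 it was 5 of 6 lower and none higher, beside 15.8% and 23.8%, with a median of -1.74 beside 0.14. In GFP cells against control cells, with no kainic acid, 4 of 6 were past 2-fold lower and none higher, beside 13% and 19.3% of all measured genes. The median was -1.02 beside 0.13. All 4 were receptors, Grik2, Grik4, Grid1 and Adgrb3, and Adgrb3 stood at only -0.08 as a mean over cells. The ligands C1ql2 and C1ql3 were higher there, at 857 and 181 CPM in GFP cells and 482 and 102.2 CPM in control cells. C1ql2, which granule cells secrete at mossy fibre synapses and which binds Nrxn3 protein and kainate receptors, stood at 176 CPM at day 1 and 482 CPM in control cells, at 112.7 CPM at day 14 and at 857 CPM in GFP cells. Its relative C1ql3 stood at 38.1 CPM at day 1 and 102.2 CPM in control cells. Grik2, a kainate receptor subunit, stood at 72.4 CPM at day 1 and 203 CPM in control cells. Grid1, the receptor that cerebellins join to neurexins, stood at 1.40 CPM at day 14 and 29.4 CPM in control cells. C1ql2 and C1ql3 are also among the granule cell markers, which were lower as a whole after kainic acid. The day 1 median of this list was only -0.21 with GFP cells in place of the controls, while at day 14 it was -1.17.

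Splicing regulators of neurexins stood on both sides of control at day 1. Khdrbs2 stood at 200.3 CPM at day 1 and 54.1 CPM in control cells, while Khdrbs3 stood at 2.18 and 66.1 CPM and Nova1, a neuronal splicing factor, at 7.14 and 74.03 CPM. A read of Nova1 was found in 29.3% of day 1 cells and 16.1% of control cells, and in 12.1% and 17.2% of thinned cells. Khdrbs3 was past 2-fold below control in GFP cells as well, at 10.9 CPM. Khdrbs2 and Khdrbs3 encode the RNA-binding proteins SLM1 and SLM2, which set the inclusion of an alternative exon in neurexin transcripts. Of the 12 measured genes of this list 1 was past 2-fold higher and 3 lower, near the 38.4% of all measured genes past 2-fold, with a median of -0.51 beside 0.17. At day 14 none was higher and 3 were lower, Rbfox3 (121.4 and 309 CPM in control cells), Khdrbs3 (27.3 and 66.1 CPM) and Rbfox1 (179.8 and 407 CPM). Of all measured genes 23.8% were higher and 15.8% lower, and the list's median was 0.07 beside 0.14.

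Postsynaptic scaffolds of excitatory synapses were the list with most genes higher at day 1, 7 of 16 past 2-fold higher and 2 lower, beside 23.2% and 15.2% of all measured genes, with a median of 0.70 beside 0.17. In GFP cells against control cells 3 of the 16 were higher and 1 lower, beside 19.3% and 13% of all measured genes. The median was 0.37 beside 0.13. Shank1, a scaffold of the postsynaptic density, stood at 263.5 CPM at day 1 and 40.1 CPM in control cells and was read in 98.3% of day 1 cells. Dlgap2 stood at 147.05 CPM at day 1 and 43.02 CPM in control cells, and Dlg4, which encodes PSD-95, the scaffold that binds neuroligins, at 4.38 and 13.5 CPM. The same list had 3 higher and 1 lower of 16 at day 14, beside 23.8% and 15.8% of all measured genes. The median was 0.00 beside 0.14. Magi1 stood at 94.9 CPM at day 14 and 26.6 CPM in control cells, and at 84.7 CPM in GFP cells, also past 2-fold above control. Dlgap3 stood at 4.11 CPM at day 14 and 19.8 CPM in control cells.

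For the counts that follow, 23.2% of all measured genes were past 2-fold higher and 15.2% lower at day 1. At day 14 these shares were 23.8% and 15.8%. Among the scaffolds of inhibitory synapses 2 of 7 were past 2-fold higher and 2 lower at day 1. Gphn, which encodes the scaffold gephyrin, stood at 93.1 CPM at day 1, 44.2 CPM in control cells and 94.4 CPM in GFP cells, which were past 2-fold above control too. Slitrk3, a postsynaptic adhesion protein of inhibitory synapses, stood at 20.6 CPM at day 1 and 195.5 CPM in control cells. At day 14 Gphn stood at 103.7 CPM and Slitrk3 at 31.3 CPM, with 1 gene of 7 higher and 3 lower. Presynaptic scaffolds that bind neurexins counted 2 higher and 1 lower of 12 at day 1, with Apba2, an adaptor of the Mint family, at 209 CPM at day 1 and 56.0 CPM in control cells and Lin7b at 17.99 and 93.7 CPM. At day 14 they counted 3 higher and none lower, among them Apba2 at 187 CPM and the liprin gene Ppfia3 at 60.4 CPM in day 14 cells and 9.36 CPM in control cells.

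Other surface partners counted 2 higher and 2 lower of 13 at day 1 and 3 higher and 1 lower of 14 at day 14. Beside this and the next 2 lists, 23.2% of all measured genes were higher and 15.2% lower at day 1. At day 14 it was 23.8% and 15.8%. Gpc4, a glypican that binds LRRTM4 protein, stood at 330.0 CPM at day 1 and 136.1 CPM in control cells, and Clstn1, a calsyntenin, at 106.3 and 258 CPM. Mdga1, whose protein binds neuroligin 2 and keeps neurexins from it, stood at 1.13 CPM at day 14 and 47.9 CPM in control cells, while its relative Mdga2 stood at 25.7 and 7.87 CPM. Other synapse organisers counted 2 higher and 7 lower of 19 at day 1, with Lrrn1 at 34.9 CPM at day 1 and 325.5 CPM in control cells and Lrfn2 at 19.7 and 1.03 CPM. At day 14 they counted 4 higher and 5 lower of 20, with Ptprd, a presynaptic receptor phosphatase, at 38.9 and 286 CPM. Proteases that cut neurexins and neuroligins counted 2 higher and 2 lower of 9 at day 1 and 3 higher and none lower at day 14, where the sheddase gene Adam17 stood at 48.9 CPM in day 14 cells and 16.3 CPM in control cells.

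Under Id2 these lists differed less. C1ql2 stood at 366 CPM in Id2 cells and 857 CPM in GFP cells and was the single one of 6 secreted ligands and receptors past 2-fold. Slitrk1, an adhesion protein of synapses, stood at 12.99 CPM in Id2 cells and 41.2 CPM in GFP cells, Ppfia3 at 100.05 and 34.96 CPM and Dlgap4 at 49.4 and 124.4 CPM. Over all lists, 5 of 88 measured genes were past 2-fold higher and 10 lower, or 17.05% in all beside 22.9% of all measured genes. At day 1 it was 18 higher and 22 lower of 94, or 42.6% beside 38.4%, and at day 14 it was 17 and 17 of 95, or 35.8% beside 39.6%. These shares lie near those of all measured genes.

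**Figure D5:**
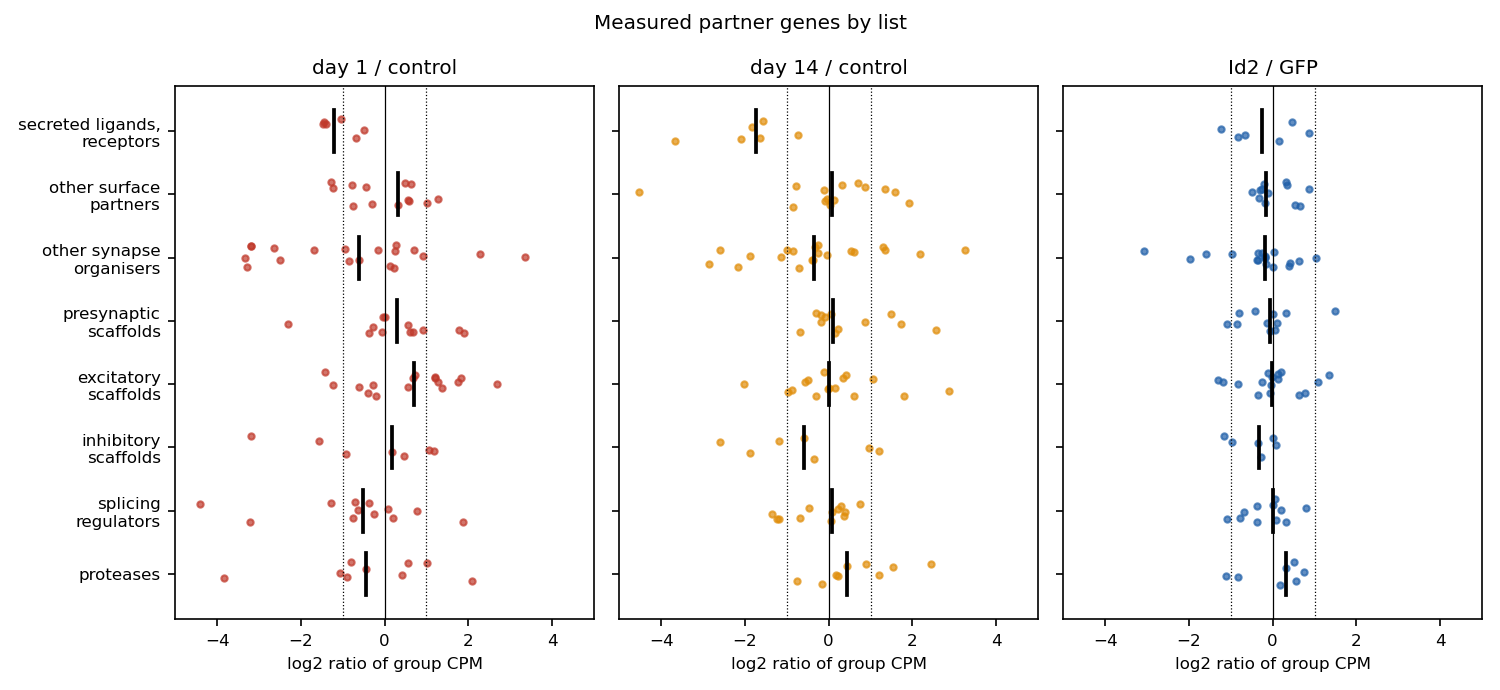
Log2 ratios of the measured genes of 8 lists at day 1 and day 14 against control and with Id2 against GFP. Points are genes, black bars list medians and dotted lines 2-fold; all 6 secreted ligands and receptors lie below 0 at both days, and the excitatory scaffolds have their median at 0.70 at day 1.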

How the data were processed

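Patch-seq libraries were made, per the labels' protocols, from cytosol taken by patch pipette and with Nextera XT. The submitters' processing notes name Trimmomatic, STAR, featureCounts and GRCm38; the sources used here do not give versions, counting strand or the rule for passing cells. Deposited were raw counts for 291 cells and a scaled signal for 252 cells, which equals the counts times 1 factor per cell (0.187 to 287). The table names state the reverse, so units were settled on the values. Levels come from the counts, with the signal tried beside them. The 13 samples of 304 with no column of their title are not analysed here, and 38 cells labelled as failing entered an alternative only.

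Groups come from the labels. Counts were summed over cells and scaled to CPM (Python 3.11.15, numpy 2.4.6, pandas 2.3.3, scipy 1.17.1). Log2 ratios were taken after adding 1 CPM, and folds come from CPM alone. Reads carry no molecular identifier, so intervals cover counting error only. Cells were thinned to 100000 reads with a fixed seed, which left out 2 control cells. The scripts were tested on simulated data. Exon lengths, overlaps and gene coordinates come from GENCODE M21 (GRCm38). The 9 genes, the 9 lists of partner genes, the marker lists and the rules were chosen with earlier results of these data known. Partner genes were named as up to 3 measured genes per list and comparison past 2-fold with 1 sign by pooled counts, by averaging cells and in thinned cells, by the smallest of the 3, and some are left out of the text. The limit of 10 CPM for shares of cells was chosen after seeing the data. Alternatives were mean over cells, thinning, the scaled signal, failing cells included, the deepest 10% or microglia-rich cells (at least 1000 CPM) left out, median-of-ratios scaling, pseudocounts of 0.1 and 5 CPM, no filter, the highest cell left out, title sets and GFP cells as controls.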

Additional observations from a re-analysis of the deposited data

How the results depend on the processing

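The number of the 9 genes past 2-fold was within 1.5 times the reported one in all 14 alternatives for day 1 against control (2 to 4, reported 3) and in all 11 for day 14 against day 1 (3 to 5, reported 4). For day 14 against control, reported as 2, it was 4 with the scaled signal, 4 without microglia-rich cells, 4 against the control cells with titles other than J and 1 without the highest cell of each group. For Id2 against GFP, reported as 1, it was 2 with thinned cells, median-of-ratios scaling, a pseudocount of 0.1 CPM, the deepest 10% of cells left out, the highest cell left out and titles up to 95, and 3 without microglia-rich cells and with titles above 95. For GFP against control, reported as 2, it was 4 without microglia-rich cells and 1 with median-of-ratios scaling and against controls with other titles. No gene past 2-fold changed sign in any alternative run. The median of all measured genes lay above 0.1 in most alternatives of comparisons with control cells, up to 0.40 for day 14 against controls with other titles, and changes of the 9 genes are to be read against it. The cause of these shifts was not tested. Levels are limited by the number of cells, since 1 cell held up to 56.0% of a group's reads of a gene, and by control depth, which was lowest at 32487 reads. No paired analysis was possible because cells carry no number shared between groups and each group counts as 1 sample.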

Other observations

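Cells of the side opposite the injection, taken 1 day after kainic acid, numbered 2 and belong to no comparison above. Their Nrxn3 levels were 283 and 334 CPM and their Nlgn1 levels at most 150.6 CPM. Nrxn2 stood at 31.9 and 47.3 CPM and Nlgn2 at 9.24 and 45.3 CPM. Lrrtm1 was at 421 CPM in 1 cell and at 0 in the other, Lrrtm3 at 4.35 CPM and 0, and Nlgn3 at 0.771 CPM and 0. Lrrtm2 and Lrrtm4 were at 0 in both. None of these values exceeded the highest control cell of its gene, but that is the highest of 31 cells, so this says little about 2 cells. Both values of Nrxn2, Nrxn3 and Nlgn2 lay above the upper quartile of control cells (19.9, 56.8 and 0.869 CPM). For Nlgn1, Nlgn3, Lrrtm2 and Lrrtm4 neither value did, and for Lrrtm1 and Lrrtm3 1 of the 2 did.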
